A study of Homo sapiens with 6 samples.

Results

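The mRNA decay machinery is the set of enzymes and cofactors that shorten the poly(A) tail of an mRNA, remove its cap and degrade what is left from either end. It was examined as 53 genes in 9 complexes: the CCR4-NOT deadenylase with 9 genes, its BTG/TOB partners with 4, PAN2-PAN3 and PARN with 3, the decapping factors with 8, the LSM ring with 7, the XRN exonucleases with 2, the exosome with 12, the SKI complex with 2 and nonsense-mediated decay (NMD) with 6. The genes were found by symbol in a gene-level expression table of 22933 symbols on 406165 loci, and where a symbol had several loci the one with the most RefSeq transcripts was used. All 53 were found. A level of at least 1 FPKM (a fragment count scaled to transcript length and sequencing depth) in both groups was reached by 12032 symbols and by 52 of the 53 genes. The exception was BTG2, at 0.499 FPKM in one group and 0.314 in the other.

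The cells were PC-3, a human prostate adenocarcinoma line from a bone metastasis. All 6 samples carried the doxycycline-dependent transactivator rtTA2 from one retrovirus and received 300 ng/ml doxycycline (Dox) for 4 h. In the 3 tdTom samples a second retrovirus carried the red fluorescent protein tdTomato alone, driven by the PGK promoter, and in the 3 TTP-tdTom samples it also carried tristetraprolin (TTP) under the Dox-responsive promoter. The cells were sorted for tdTomato and grown as populations. The table gives 1 pooled level per group and locus, and no level per sample was analysed here. The differences are therefore given as sizes, without an error or a test, and the number of fragments behind each level is unknown.

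ZFP36, the gene that encodes TTP, was at 5.56 FPKM in the tdTom group and 5.54 FPKM in the group labelled TTP-tdTom. The level of the induced gene thus did not separate the groups, and it was not analysed whether the locus holds fragments of the transgene, so each direction below rests on the group labels. The epithelial markers KRT18 (98.2 and 91.5 FPKM), KRT19 (60.2 and 67.1 FPKM) and KRT8 (20.9 and 19.1 FPKM) were well expressed in the tdTom and TTP-tdTom groups, and EPCAM (15.1 and 16.8 FPKM) likewise, while CDH1 was at 0.119 and 0.390 FPKM. The leukocyte markers PTPRC (0.243 and 0.566 FPKM) and CD3E (0.733 and 0.419 FPKM) and the endothelial marker PECAM1 (0.483 and 0.793 FPKM) were below 1 FPKM in both groups. Of the fibroblast markers, COL1A1 was at 4.34 and 4.56 FPKM, DCN at 0.199 and 0.236 FPKM, and COL1A2 was listed at 0 in tdTom and at 1.38 FPKM in TTP-tdTom.

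TTP is a zinc-finger protein that binds AU-rich elements of mRNAs, mostly in their untranslated 3′ ends (3′UTRs), with UAUUUAU as its best-known core, and it brings CCR4-NOT to them through the scaffold protein CNOT1. Shortening of the tail by CCR4-NOT is followed by decapping and degradation from the 5′ end, or by degradation from the 3′ end by the exosome. The comparison asked whether the mRNAs of this machinery themselves stood at other levels in cells with TTP induced.

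The heptamer UAUUUAU was searched on the transcribed strand of the longest annotated 3′UTR per gene (GENCODE release 29, build GRCh38). Outside the exosome subunit EXOSC6, the largest number of copies in a gene of the machinery was 3, in 4 genes. They are shown because equal numbers of copies went with unlike ratios: the first pair had levels lower by 1.5-fold or more in the group labelled TTP-tdTom and the second pair did not. Each site is given with 10 flanking bases on either side, 5′ to 3′, with the heptamer in capitals.
XRN1, chr3:142310989-142311015, minus strand: gaauggcucuUAUUUAUguguguuuua
XRN1, chr3:142310317-142310343, minus strand: uauauauauaUAUUUAUucuuuaguuu
XRN1, chr3:142308152-142308178, minus strand: acucacuuuuUAUUUAUguguucuauu
TTC37, chr5:95464495-95464521, minus strand: uuuuaaacuaUAUUUAUuccuuuucua
TTC37, chr5:95464102-95464128, minus strand: ucuuguaaccUAUUUAUcuagugauuc
TTC37, chr5:95463721-95463747, minus strand: gacacuuacaUAUUUAUuguacagaaa
DCP2, chr5:113014983-113015009, plus strand: ggagaaauucUAUUUAUuaaugaaagu
DCP2, chr5:113015203-113015229, plus strand: cuucgagccaUAUUUAUaguugguccc
DCP2, chr5:113020097-113020123, plus strand: aaggugaagaUAUUUAUgcugaguuau
DIS3, chr13:72759582-72759608, minus strand: ugaacagaauUAUUUAUgcagaauaau
DIS3, chr13:72755421-72755447, minus strand: aguauaaaaaUAUUUAUugauaaaaaa
DIS3, chr13:72754493-72754519, minus strand: cauuugcugaUAUUUAUaguauuuuau

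The mRNA levels of most decay genes were somewhat lower in the group labelled TTP-tdTom, as were those of most other genes. Of the 52 genes, 45 were lower by any amount and 7 higher, against 81.2% lower among all 12032 symbols. The median log2 ratio of TTP-tdTom to tdTom was -0.22 over the machinery and -0.24 over all symbols, whose quartiles were -0.54 and -0.06. By 1.5-fold or more, 11 genes (21.2%) were lower, against a background of 22.4%, and 1 was higher, against 1.07%. By 2-fold or more, TOB1 and TTC37 were lower (3.85%), against 7.92%, and no gene was higher, against 0.324%. The share of the machinery at 1.5-fold was thus near the background, the count at 2-fold was too small to set against it, and the genes varied both between and within the complexes. In bulk RNA, fewer cells with an mRNA and less of it per cell cannot be told apart. The rows of 5 genes carry another symbol as well, and the loci of 17 overlap that of another symbol, 21 genes in all. The loci of 11 genes (CNOT3, BTG1, DCP2, LSM1, LSM7, EXOSC1, EXOSC4, EXOSC6, EXOSC8, DIS3 and SKIV2L) are listed with a span over 2 times the annotated gene. Loci that overlap can be listed with the same ends and different levels, as those of LSM7 and SPPL2B are. A wide span thus does not show that a level holds fragments of a neighbour, which was not tested. The levels in tdTom cells ran from 1.95 FPKM for DCP1B to 334.3 FPKM for LSM3.

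**Figure D1:**
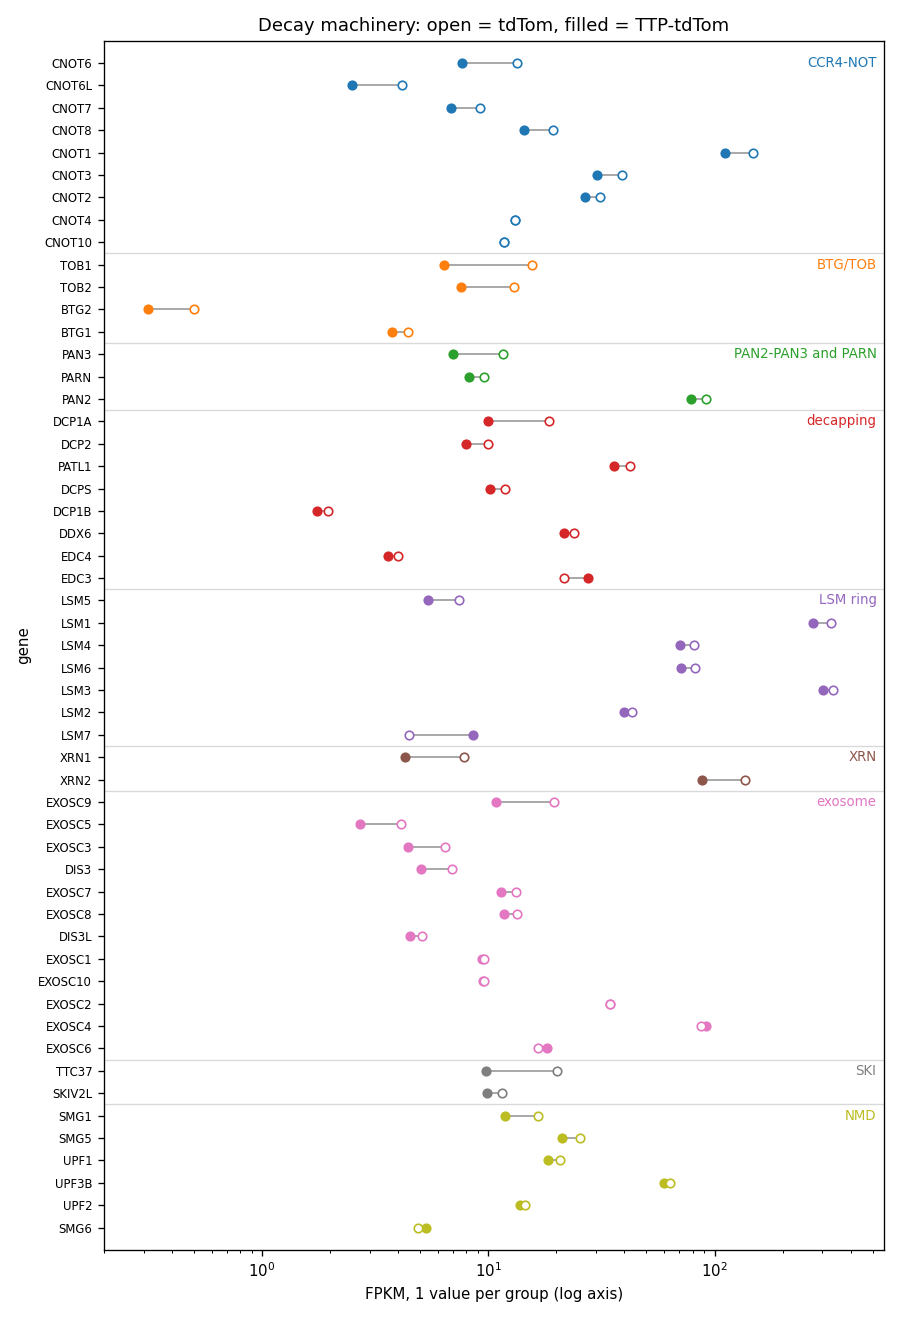
FPKM (log axis) of the 53 genes in the tdTom group (open circles) and the group labelled TTP-tdTom (filled circles), 1 pooled level per group, arranged by complex. Most filled circles lie a little to the left of the open ones, and LSM7 lies to the right, from 4.47 to 8.54 FPKM.

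Within CCR4-NOT the 4 catalytic subunits were all lower in the group labelled TTP-tdTom, as were 81.2% of all symbols, and the structural subunits less so before GC content was considered. CNOT6, a deadenylase of the CCR4 type, went from 13.4 to 7.69 FPKM (log2 ratio -0.80). Its paralogue CNOT6L went from 4.17 to 2.50 FPKM (-0.74). Both were past 1.5-fold, but not with centring on the median of all symbols (-0.56 and -0.50). CNOT6 made up 76.3% of their summed FPKM in tdTom cells and 75.5% in TTP-tdTom cells. The CAF1-type deadenylases were lower by less: CNOT7 went from 9.22 to 6.81 FPKM (-0.44) and CNOT8 from 19.4 to 14.4 FPKM (-0.43). The share of CNOT7 in that pair was 32.2% and 32.1%. Each pair of paralogues thus kept its proportion, while the median log2 ratio of the 4 enzymes was -0.59.

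The other 5 CCR4-NOT subunits had a median log2 ratio of -0.22, near the -0.24 of all symbols. None was past 1.5-fold, against 22.4% of all symbols lower by that much. CNOT1, the scaffold that holds the complex together and to which TTP binds, was the most abundant at 147.5 and 111.2 FPKM (-0.41). CNOT3 and CNOT2, which form a module at one end of the scaffold, had log2 ratios of -0.37 and -0.22. CNOT4, a ubiquitin ligase, stood at 13.2 and 13.1 FPKM, and CNOT10, from the module at the other end, at 11.8 FPKM in both groups. The locus of CNOT1 overlaps SETD6 and the small nucleolar RNAs SNORA46 and SNORA50.

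The BTG/TOB proteins bridge CNOT7 or CNOT8 to the mRNA and speed up deadenylation. TOB1 (GRCh37, chromosome 17, 48939587 to 48945732) had the lowest ratio of the machinery, with 15.6 FPKM in tdTom cells and 6.41 FPKM in the group labelled TTP-tdTom (log2 ratio -1.28). Only 3.02% of the 12032 symbols had a ratio as low or lower. TOB2 (chromosome 22, 41829492 to 41843027) went from 12.96 to 7.58 FPKM (-0.77), and was short of 1.5-fold with centring (-0.53). TOB1 made up 54.6% of the summed FPKM of the pair in tdTom cells and 45.8% in TTP-tdTom cells, and was thus the more abundant of them in the first group and the less abundant in the second. BTG1 stood at 4.43 and 3.74 FPKM (-0.24), in a row shared with LOC256021. The TOB1 locus also carries LOC400604, which was at 0.480 and 0.667 FPKM.

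Of the deadenylases outside CCR4-NOT, neither catalytic subunit was past 1.5-fold. PAN2, the nuclease of PAN2-PAN3, went from 91.6 to 78.6 FPKM (-0.22), in a row shared with CNPY2. PAN3, the adaptor that holds PAN2 on poly(A)-binding protein, went from 11.6 to 6.96 FPKM (-0.74) and was the one component of the group past 1.5-fold, though not with centring (-0.50). The overlapping antisense gene PAN3-AS1 had a log2 ratio of -0.36. PARN, a separate poly(A)-specific nuclease, stood at 9.59 and 8.24 FPKM (-0.22). Across the 15 deadenylation genes above 1 FPKM the median log2 ratio was -0.41 and 5 were lower by 1.5-fold or more (33.3%, against the background of 22.4%). With ratios centred on the median of all symbols, TOB1 alone was lower by that much (6.67%, against 12.9%).

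**Figure D2:**
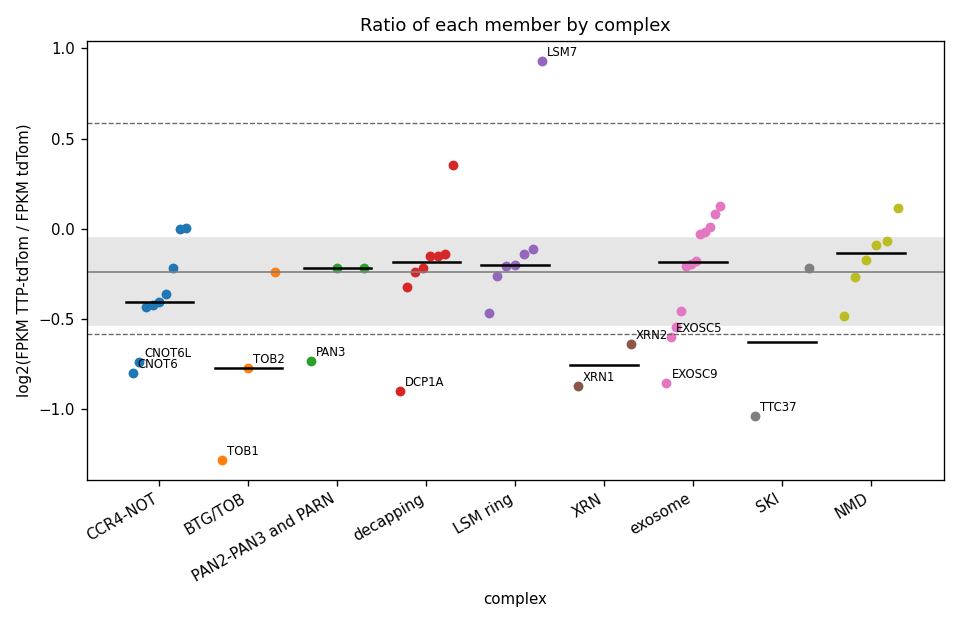
log2 ratio of FPKM, TTP-tdTom over tdTom, for the 52 genes above 1 FPKM, grouped by complex, with black bars at the median of each complex. The grey line and band are the median (-0.24) and quartiles of all 12032 symbols and the dashed lines are 1.5-fold; the XRN, BTG/TOB and SKI medians lie below the band and the other medians inside it.

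The decapping factors were close to the background, apart from one activator at each extreme. DCP2, the enzyme that removes the cap, went from 9.97 to 7.96 FPKM (-0.33). DCP1A (chromosome 3, 53316931 to 53381667), which activates DCP2, went from 18.6 to 9.96 FPKM (-0.90) in the group labelled TTP-tdTom. Its paralogue DCP1B was at 1.95 and 1.76 FPKM (-0.15), and the share of DCP1A in the pair went from 90.5% to 85.0%. EDC3, an enhancer of decapping, was higher, at 21.5 and 27.5 FPKM (0.35), but short of 1.5-fold, which it passed with centring (0.595). Its ratio was the second highest of the machinery.

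The remaining decapping factors differed little. EDC4, the scaffold of the decapping complex, was at 3.97 and 3.61 FPKM in a row shared with NRN1L. DDX6, a helicase that links deadenylation with decapping, was at 24.02 and 21.6 FPKM, and PATL1, which joins the decapping proteins to the LSM ring, was the most abundant at 42.3 and 35.8 FPKM. DCPS, which hydrolyses the cap left after degradation from the 3′ end, was at 11.8 and 10.2 FPKM. The median log2 ratio of the 8 genes was -0.19.

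The LSM ring, which binds the end of deadenylated mRNA and promotes decapping, held the most abundant mRNAs and the only gene higher by 1.5-fold. LSM3 was at 334.3 and 302.7 FPKM (-0.14), and LSM1, the subunit that sets the cytoplasmic ring apart from the nuclear one, at 326.9 and 272.6 FPKM (-0.26). At the loci used, LSM5 had the lowest ratio, from 7.45 to 5.39 FPKM (-0.47). Its second locus, not used, went from 0.654 to 1.97 FPKM. LSM2, LSM4 and LSM6 had log2 ratios between -0.21 and -0.12.

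LSM7 went from 4.47 FPKM in tdTom cells to 8.54 FPKM in the group labelled TTP-tdTom (log2 ratio 0.93). Its row is listed at chromosome 19, 2321520 to 2355117, a span over 2 times that of the gene. The row of the neighbouring gene SPPL2B is listed with the same ends and went from 10.4 to 8.08 FPKM (-0.36). Whether the LSM7 level holds fragments of SPPL2B was not tested.

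The XRN exonucleases degrade decapped RNA from the 5′ end. In the group labelled TTP-tdTom both were lower by 1.5-fold or more, as were 22.4% of all symbols. XRN2 was short of it once ratios were centred on the median of all symbols (-0.40). The share of all symbols was then 12.9%. XRN1, the cytoplasmic enzyme (chromosome 3, 142025449 to 142167311), went from 7.84 to 4.27 FPKM (-0.88). XRN2, the nuclear enzyme (chromosome 20, 21283883 to 21370465), went from 136.9 to 87.9 FPKM (-0.64). XRN1 made up 5.42% of their summed FPKM in tdTom cells and 4.63% in TTP-tdTom cells. Neither locus overlaps that of another named gene.

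In the exosome, the ring of 6 subunits, the cap of 3 and the nucleases had medians above the -0.24 of all symbols, and 9 of the 12 genes were lower by any amount, against 81.2% of all symbols. EXOSC9, a ring subunit, had the lowest ratio, from 19.5 to 10.8 FPKM (-0.86). Its locus (chromosome 4, 122722472 to 122745088) is listed with the same ends as that of its neighbour CCNA2, the cell cycle gene for cyclin A2. CCNA2 went from 17.8 to 6.55 FPKM (-1.44). The loci of TOB1, PAN3, LSM7 and TTC37 likewise share both ends with those of the symbols they overlap. Whether the levels of any such pair share fragments was not tested. EXOSC5, also of the ring, went from 4.12 to 2.71 FPKM (-0.60), just past 1.5-fold but not with centring (-0.36). EXOSC3 of the cap, from 6.43 to 4.41 FPKM (-0.55), was just short of it.

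The other exosome subunits differed less. EXOSC4, the most abundant, was at 86.9 and 92.0 FPKM in a row shared with GPAA1, and EXOSC6 had the highest ratio, at 16.7 and 18.2 FPKM (0.13), in a row shared with AARS. EXOSC1, EXOSC2, EXOSC7 and EXOSC8 had log2 ratios between -0.21 and 0.01. Among the nucleases, the nuclear EXOSC10 was at 9.60 and 9.46 FPKM (-0.02), DIS3 at 6.92 and 5.04 FPKM (-0.46) and the cytoplasmic DIS3L at 5.08 and 4.49 FPKM (-0.18). DIS3 made up 57.6% of the DIS3 and DIS3L sum in tdTom cells and 52.9% in TTP-tdTom cells. The medians were -0.03 for the cap, -0.20 for the ring and -0.18 for the nucleases.

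The SKI complex threads mRNA into the cytoplasmic exosome, and its subunits differed from each other. TTC37, the scaffold (chromosome 5, 94799381 to 94940879), went from 20.1 to 9.81 FPKM (-1.04) in the group labelled TTP-tdTom. The overlapping gene ARSK had a log2 ratio of -0.32. SKIV2L, the helicase, went from 11.5 to 9.84 FPKM (-0.22), in a locus that overlaps other named genes.

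None of the 6 NMD genes, which recognise mRNAs with a premature stop codon, was past 1.5-fold, against 22.4% of all symbols lower by that much. UPF3B was the most abundant at 63.7 and 59.8 FPKM (-0.09). SMG1, the kinase that phosphorylates the helicase UPF1, had the lowest ratio, from 16.6 to 11.9 FPKM (-0.49). SMG6, an endonuclease, had the highest at 4.90 and 5.32 FPKM (0.12). UPF1, UPF2 and SMG5 had log2 ratios between -0.27 and -0.07, and the median of the 6 was -0.13.

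Arranged by step of the pathway, the median log2 ratio was -0.41 for deadenylation, -0.21 for the 17 genes of decapping, the LSM ring and XRN, and -0.20 for the 14 genes of the exosome and SKI complexes. Lower by 1.5-fold or more were 5 (33.3%), 3 (17.6%) and 3 (21.4%) genes, against 22.4% of all symbols. With centring they were 1 (6.67%), 2 (11.8%) and 2 (14.3%), against 12.9%, so that deadenylation had the highest share without centring and the lowest with it. Of a further 49 decay genes from outside the 53, listed by function, 48 were in the table and all of these were above 1 FPKM. Their median log2 ratio was -0.39, 14 (29.2%) were lower by 1.5-fold or more, and none was higher, against 22.4% and 1.07% of all symbols. Lowest among them was BTG3, a relative of the TOB proteins, from 14.6 to 3.45 FPKM (-2.08). C1D and MPHOSPH6, cofactors of the nuclear exosome, went from 23.5 to 8.55 FPKM (-1.46) and from 31.1 to 13.4 FPKM (-1.21).

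The base composition of the transcripts moved with the ratio, in all genes and in the machinery. The GC content of the coding transcript with the longest 3′UTR had a Spearman correlation with the log2 ratio of 0.51 over 11134 symbols and 0.39 over the 52 genes, which share the same libraries. In the quintile of symbols with the lowest GC content (28.6% to 40.6%) the median log2 ratio was -0.66 and 56.4% were lower by 1.5-fold or more. The 17 decay genes in that quintile had a median of -0.33, and 5 of them were lower by that much. In the next quintile the median was -0.38 for all symbols and -0.55 for 9 decay genes, of which 4 were lower by 1.5-fold or more, against 31.3% of the symbols. The part of base composition in the ratios was not tested.

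Set against symbols of the same GC quintile, the genes took another order. TOB1, at 42.1% GC, was lower than the median of its quintile by a log2 difference of -0.90, at its percentile 3.28. TOB2 (54.1% GC) and EXOSC5 (61.5% GC) were at percentiles 3.14 and 2.92, with differences of -0.64 and -0.50. By contrast TTC37 and XRN1, at 38.5% and 37.3% GC, were at percentiles 21.8 and 33.1, and CNOT6 at 38.9. LSM7 was at percentile 99.8 and EDC3 at 96.7. Within CCR4-NOT the order of the subunits was another than that of the ratios: CNOT3 and CNOT1 were at percentiles 10.6 and 27.1, below CNOT6 and below CNOT6L, CNOT8 and CNOT7 at 44.3, 45.5 and 68.1, while CNOT2 and CNOT10 were at 84.5 and 89.2. CNOT4, with nearly equal levels in both groups and 38.8% GC, was at 94.3.

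**Figure D3:**
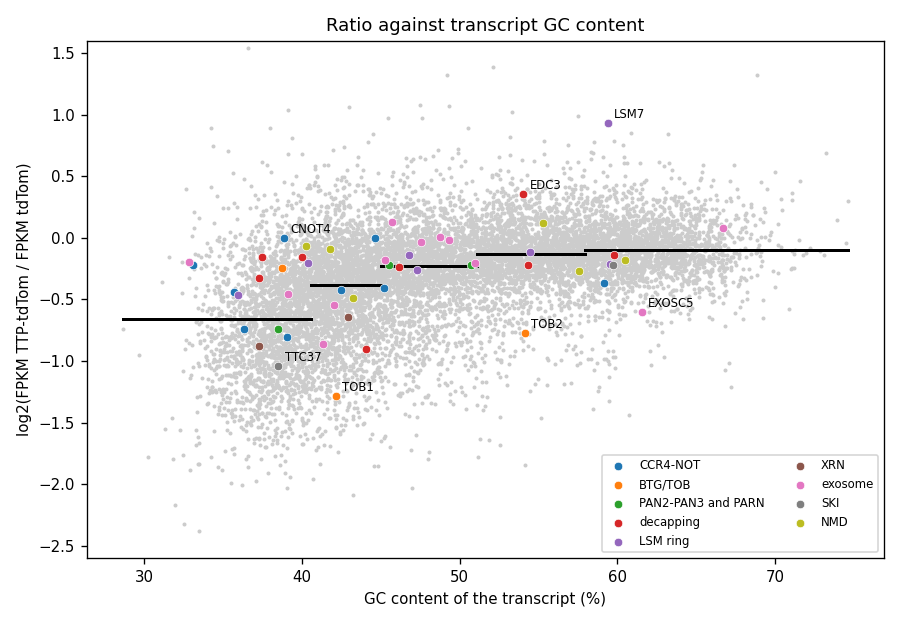
log2 ratio of FPKM, TTP-tdTom over tdTom, against the GC content of the transcript (%), with symbols in grey (6 lie outside the axis), decay genes coloured by complex and black bars at the median of each quintile of symbols. The medians go from -0.66 in the lowest quintile to -0.10 in the highest, and TOB2 and EXOSC5 lie below most symbols of like GC content.

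At least 1 UAUUUAU was present in the longest 3′UTR of 20 of the 52 genes (38.5%), against 4042 of 11134 symbols (36.3%). The 20 genes had a median log2 ratio of -0.43, and 8 (40.0%) were lower by 1.5-fold or more. The 32 genes with no copy had a median of -0.17, and 3 (9.38%) were lower. Among all symbols the same classes had medians of -0.45 and -0.18, and 39.3% and 13.2% were lower, so the difference between the classes in the machinery was like that over all genes. Symbols with the heptamer also had a median 3′UTR length of 2632 bases and a GC content of 42.8%, against 938 bases and 51.5% without it.

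With 3 or more copies, 5 genes had a median of -0.46 and 2 (40.0%) were lower by 1.5-fold or more, against -0.63 and 52.7% of 808 symbols. The genes with 3 copies shown above ran from TTC37 at -1.04 and XRN1 at -0.88 to DIS3 at -0.46 and DCP2 at -0.33. The loci of TTC37, DCP2 and DIS3 overlap other named genes, while that of XRN1 overlaps none. The listed spans of TTC37, DCP2 and DIS3 are 1.52, 11.6 and 9.64 times the gene, but overlapping loci can be listed with the same ends. The DCP2 and DIS3 3′UTRs, of 7486 and 7626 bases, are longer than that of XRN1, 4904 bases. EXOSC6, with 6 copies, was at 0.13, but in a row shared with AARS, which has 0 copies, so the level is not that of EXOSC6 alone. TOB1, with the lowest ratio of all, had no UAUUUAU in its longest 3′UTR of 757 bases but 4 copies of the shorter AUUUA. Every UAUUUAU contains an AUUUA, but AUUUA also occurs outside the heptamer. XRN2 and EXOSC5 also had no heptamer, and the copy in EXOSC9 lay in a 3′UTR of 55 bases. Copies of UAUUUAU and of AUUUA had Spearman correlations with the log2 ratio of -0.47 and -0.50 over the 52 genes, and of -0.34 and -0.45 over 11134 symbols.

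**Figure D4:**
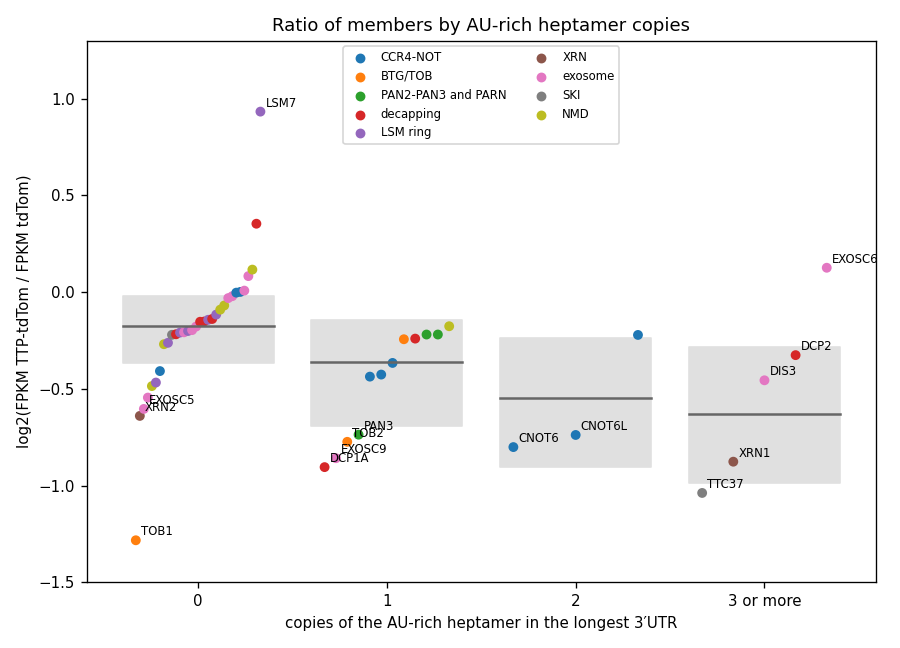
log2 ratio of FPKM, TTP-tdTom over tdTom, of the 52 genes by the number of copies of the AU-rich heptamer in the longest 3′UTR, coloured by complex, with grey bars and bands for the median and quartiles of all symbols with that number. TOB1 (-1.28) lies in the class without a copy, and the genes with 3 or more copies spread from -1.04 to 0.13. The highest of these, EXOSC6, is in a row shared with AARS.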

How the data were processed

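Strand-specific RNA-seq libraries were made by the authors from 6 samples of doxycycline-treated PC-3 cells. The authors aligned the reads with TopHat2 (version 2.0.13) and estimated levels with Cufflinks (version 2.2.1). The deposited table gives FPKM per locus (build GRCh37), 1 pooled value per group, and was made by the authors by length and depth normalization. Its columns of fold changes, test statistics, p and q values and calls hold the authors' own comparison and were not used. The pooled FPKM carry no spread between samples, so no test was computed from them.

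A symbol was assigned the locus with the most RefSeq names and then the highest summed FPKM. log2 ratios of TTP-tdTom to tdTom were computed without a pseudocount for symbols of at least 1 FPKM in both groups, and 1.5-fold or 2-fold changes were counted. 3′UTRs and transcript GC content were taken from GENCODE release 29 (GRCh38), matched by symbol. All 53 genes and 92.5% of 12032 symbols matched. Scripts used Python 3.11.15, pandas 2.3.3 and scipy 1.17.1 and were tested on simulated data.

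The members and lists were chosen with earlier results of these data known. Values are given for all genes past 1.5-fold, catalytic subunits, the scaffolds CNOT1 and EDC4, paralogue pairs, and the most abundant, lowest and highest gene of each complex. Genes that stand apart within a GC quintile, and the other decay genes named, were chosen after their values were seen.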

Additional observations from a re-analysis of the deposited data

Results flagged for a closer look

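A total of 5 genes had a second locus at the same coordinates that the comparisons did not use, and 3 of these second loci had a higher level in the group labelled TTP-tdTom than in the tdTom group. The second locus of PAN2 was at 0.866 FPKM in tdTom cells and 3.03 FPKM in TTP-tdTom cells. That of LSM5 was at 0.654 and 1.97 FPKM, and that of LSM4 at 0.365 and 1.08 FPKM. The main loci of the same genes were lower in TTP-tdTom cells, with log2 ratios of -0.22, -0.47 and -0.21. The second loci of DIS3L (2.29 and 0.714 FPKM) and SMG6 (0.201 and 0.0156 FPKM) were lower. All of these differences were untested, and the strand of the second loci was not analysed.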

How the results depend on the processing

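No paired analysis was possible because each group has a single pooled level. Fits leaving out a replicate and those with edgeR or DESeq2 were not run on that account, and depth could not be weighed. At 2-fold, 2 genes were lower and 0 higher, against 7.92% and 0.324% of all symbols. Centring on the median of all symbols, a shift of 0.24, left 5 genes lower and 2 higher by 1.5-fold, against 12.9% and 3.04%. It put the median log2 ratio of the machinery at 0.0214, and the medians at -0.17 for CCR4-NOT, -0.53 for BTG/TOB, -0.52 for XRN and -0.39 for SKI. Those of PAN2-PAN3 and PARN (0.0222), decapping (0.0559), the LSM ring (0.0404), the exosome (0.0542) and NMD (0.11) were above 0, as follows from medians above that of all symbols. Giving both groups an equal total over all 406165 loci, an alternative chosen after seeing the data, put 0 genes lower and 52 higher, with a median of 2.87. That total is set by the 375963 loci without a symbol, which hold 99.8% of it in tdTom and 98.4% in TTP-tdTom. Over loci with a symbol, equal sums moved log2 ratios by 0.05. Among genes with no overlapping named locus, a choice made after seeing the data, 7 of 31 were lower and 0 higher, against 22.4% and 1.07% of all symbols. The share of all symbols higher was 0.524% with a pseudocount of 1 FPKM, 13.1% with no minimum FPKM and 0.583% with a mean FPKM of at least 5. The BTG/TOB median was -1.03 with that mean and also for genes alone in their row, where the PAN2-PAN3 and PARN median was -0.48. In 109 other cases a count or share stayed within 1.5 times, or a median within 0.1, of its main value. With centring, CNOT6 (-0.56), CNOT6L (-0.50), TOB2 (-0.53), PAN3 (-0.50), XRN2 (-0.40) and EXOSC5 (-0.36) were short of 1.5-fold. EXOSC5 was also short of it with equal sums over loci with a symbol (-0.55), and EXOSC5 (-0.46) and CNOT6L (-0.56) with a pseudocount of 1 FPKM.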
